A study of Mus musculus with 8 samples.

Results

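The decline of early mRNAs in RAW264.7 macrophages was followed by setting the RNA sequencing library taken 75 min after lipopolysaccharide (LPS) against the library taken at 45 min. RAW264.7 is an established mouse macrophage-like cell line, and LPS, from the outer membrane of gram-negative bacteria, activates macrophages through the receptor TLR4. The series holds 8 libraries, 1 at each time point: the untreated culture (0 min), cultures given 100 ng/ml LPS for 15, 30 or 45 min, and cultures given it for 60, 75, 90 or 120 min. Of the 23141 genes in the deposited count table, the 10930 with at least 50 reads in the 45 min or the 75 min library were compared. The libraries have no replicate, so no test of the conditions was possible: all intervals cover counting error only, unless a wider one is named, and each difference is one between 2 libraries.

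Counts were divided by a size factor per library and are given as normalized counts. A gene is said to have fallen or risen where its normalized count at 75 min was at least 2-fold below or above that at 45 min, a log2 ratio of -1 or less or of 1 or more. For a falling mRNA the apparent half-life is the 30 min between the libraries divided by the fall in log2 units. It is apparent because production after 45 min was not measured, so that it describes net loss. In bulk RNA of this kind, less RNA per cell cannot be told apart from fewer cells that hold it.

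Total counts were 112983092 at 45 min and 100250892 at 75 min, within the range of 100250892 to 159077286 over the series. Reads assigned to Rn45s, the gene of the ribosomal RNA precursor, made up 16.6% and 20.5% of these counts. Their share was 13.0% at 15 min, 15.8% at 90 min and 8.18% to 9.11% at 0, 30, 60 and 120 min. Counts per gene do not tell precursor from mature ribosomal RNA. Because the shares differ, the decline is given below in the libraries of 30 and 60 min as well. All 9 macrophage markers were detected in every library, and at most 7 reads fell on any of 8 markers of other cell types, of which 7 had no read at 45 min and 6 none at 75 min. The labels name the RNA fraction as cytoplasmic, whereas the study describes purification of total RNA.

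LPS signalling through NF-κB and the MAP kinases switches on immediate early genes, which need no new protein synthesis to be transcribed. They encode transcription factors such as FOS, JUN and EGR1, followed by cytokines and by inhibitors that feed back on the same pathways. Many of these mRNAs carry AU-rich elements in the 3′ untranslated region (UTR), which are bound by proteins such as ZFP36 (tristetraprolin) that recruit the CCR4-NOT deadenylase and shorten the life of the message. A burst of transcription followed by rapid decay gives such mRNAs a brief peak.

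The genes and gene lists named in this report were chosen with earlier results of these data known. Of the 36 named mRNAs that fell, 7 hold the AU-rich nonamer TTATTTATT in the 3′ UTR of the transcript matched to the count table. The first such site of 6 of them is shown 5′ to 3′ with the nonamer in capitals (GRCm38), because these mRNAs cover the range from the fastest to the slower declines:
Fos (chr12:85477103-85477132, plus strand): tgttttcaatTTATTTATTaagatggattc
Ppp1r15a (chr7:45522956-45522985, minus strand): tagtttcctaTTATTTATTtatttatttat
Zfp36 (chr7:28376950-28376979, minus strand): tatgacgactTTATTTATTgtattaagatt
Zfp36l2 (chr17:84184913-84184942, minus strand): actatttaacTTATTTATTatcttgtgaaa
Dusp1 (chr17:26506158-26506187, minus strand): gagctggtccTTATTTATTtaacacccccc
Tnf (chr17:35199688-35199717, minus strand): tttgcacttaTTATTTATTatttatttatt
Overlapping copies of the nonamer followed the first in Tnf, which held 5, and in Ppp1r15a, which held 4. Dusp1 held 2 separate sites, and Fos, Zfp36 and Zfp36l2 held 1 each.

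A second set of sequences comes from the promoters. The cAMP response element TGACGTCA, a palindrome bound by CREB and ATF factors, was found within 250 bases before and 50 bases after the annotated start of 4 falling genes that had already risen at 30 min (RefSeq, GRCm38.p6). The element is in capitals:
Btg2 (chr1:134079303-134079332, minus strand): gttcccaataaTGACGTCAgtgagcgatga
Nfkbid (chr7:30422344-30422373, plus strand): cgttagcgccgTGACGTCAgcgcgcggcgt
Ppp1r15a (chr7:45526262-45526291, minus strand): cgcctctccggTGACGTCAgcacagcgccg
Dusp1 (chr17:26508597-26508626, minus strand): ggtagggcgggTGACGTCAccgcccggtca
The first base of the element lay 166 bases before the start in Btg2, 12 in Ppp1r15a and 143 in Dusp1. In Nfkbid it lay 51 bases before an alternative RefSeq start, which is inside the gene's interval given below and not at its first base.

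Between 45 and 75 min, 177 of the 10930 genes fell (1.62%) and 153 rose (1.4%), while 10600 did neither. The central 50% of all log2 ratios lay between -0.15 and 0.12, so that most mRNAs changed little relative to each other. The median of 0.01 is held near 0 by the size factors and does not show that levels per cell were kept. The counting interval of all 177 falling genes lay below 0, which the limits of 50 reads and 2-fold fix in advance. With an interval that adds a dispersion estimated over the 8 libraries, treated as if they were replicates, 131 falling (1.2%) and 135 rising genes (1.24%) kept an interval on their side of 0. The scale matters here: 266 genes fell and 109 rose after division by total counts, which moved the median log2 ratio to -0.14. With either spike-in transcript as the scale, 132 fell and 195 rose (median 0.15) or 712 fell and 67 rose (median -0.48).

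**Figure D1:**
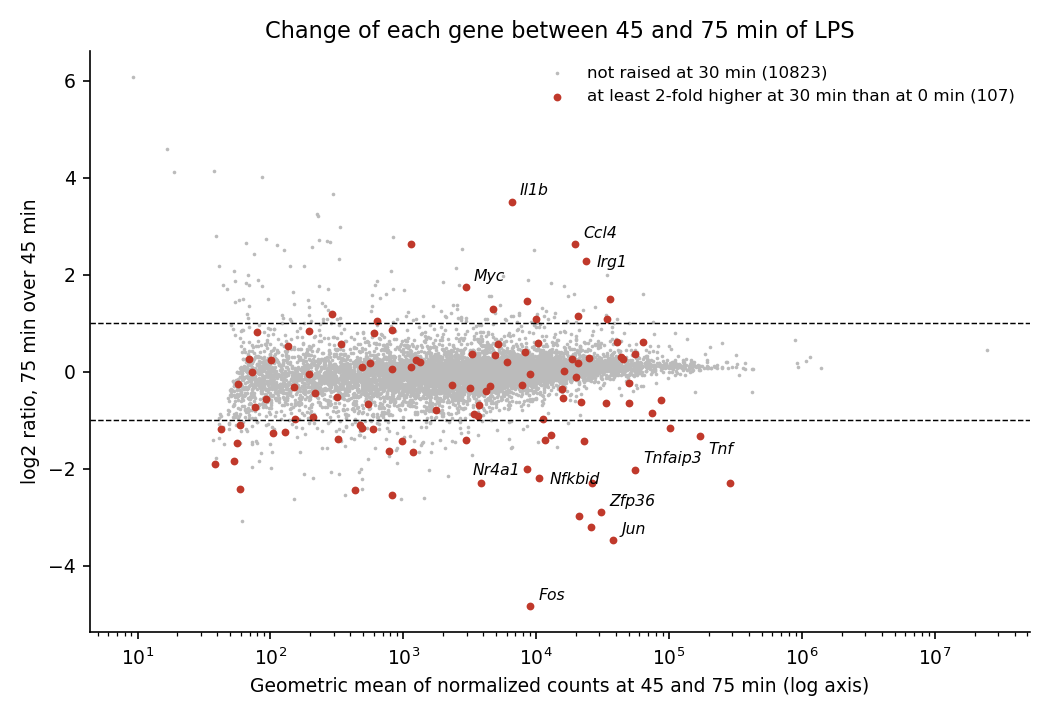
Log2 ratio of normalized counts, 75 min over 45 min (y axis), against the geometric mean of the normalized counts of both libraries (x axis, log scale) for the 10930 genes, with dashed lines at the 2-fold limits. Red points are the 107 genes that were at least 2-fold higher at 30 min than at 0 min, of which 34 lie below the lower line, 13 above the upper one and 60 between them. Grey points are the other 10823 genes, of which 143 lie below the lower line.

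The half-lives of the 177 falling genes ranged from 6.21 to 29.9 min, with a median of 22.6 min and quartiles of 18.2 and 26.2 min. In 4 genes the half-life was at most 10 min, in 25 between 10 and 15 min and in 28 between 15 and 20 min. The 2-fold limit sets the upper end at 30 min. Among genes whose higher count was 50 to 54, just inside the limit on low counts, 2 of 58 were at least 2-fold lower, and among those with 45 to 49, just outside it, 4 of 77 were. No gene compared had 0 counts in either library.

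To ask how many of the falling mRNAs were early in the sense of having been induced first, genes were chosen in the 0 and 30 min libraries alone, which the ratio does not use. Of 107 genes with at least 50 reads at 30 min and a level at least 2-fold above 0 min (0.979% of the genes compared), 34 fell (31.8%), 13 rose (12.1%) and 60 did neither. Their median log2 ratio was -0.35, and 65 of them (60.7%) were lower at 75 min by any amount, compared with 48.4% of all genes. Among the 10823 genes not raised at 30 min, 143 fell (1.32%). Thus, the name early mRNAs holds for 34 of the 177 falling genes, or 19.2%, and the other 143 fell without having risen 2-fold at 30 min.

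**Figure D2:**
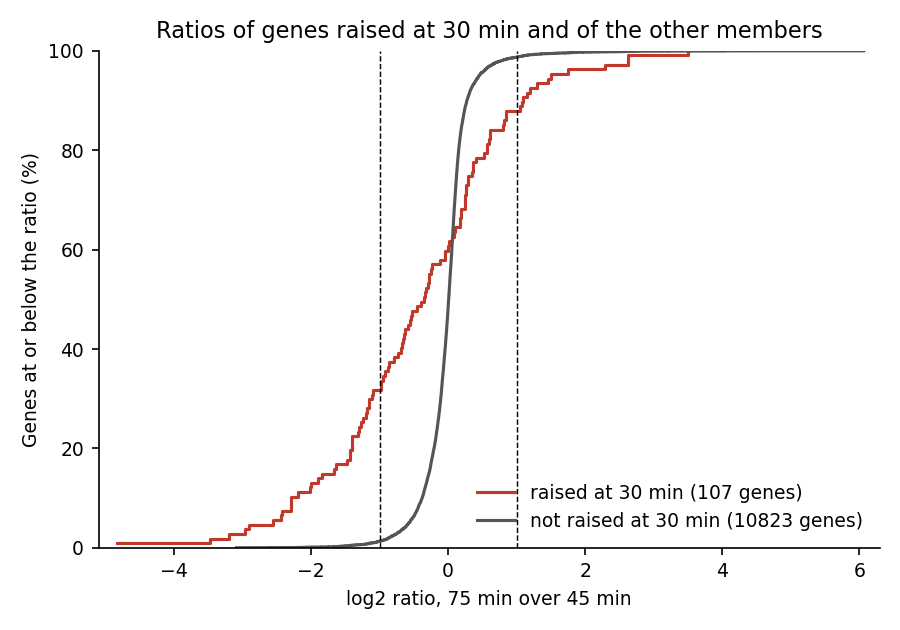
Cumulative share of genes (y axis, %) at or below each log2 ratio of 75 min over 45 min (x axis), for the 107 genes raised at 30 min and the 10823 that were not, with dashed lines at the 2-fold limits. The curve of the raised genes crosses the lower limit at 31.8% and leaves 12.1% above the upper one, while the other curve rises steeply near 0.

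The 3 mRNAs that mark this decline encode inhibitors of the inflammatory response. Zfp36 (chr7:28376784-28379228 in GRCm38, as for all genes below), which encodes tristetraprolin, had normalized counts of 3172, 9992, 56639, 84456, 21936, 11301, 13667 and 15868 in the 8 libraries in order of time. Its level at 75 min was 13.4% of that at 45 min, a log2 ratio of -2.90 (-2.94 to -2.87) and a half-life of 10.3 min (10.2 to 10.5, or 7.99 to 14.6 with the dispersion over the libraries). Zfp36 thus peaked at 45 min, was down to 11301 at 75 min and was then higher at 90 and 120 min, with 5.00 times the level of resting cells at 120 min.

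Nfkbid (chr7:30421731-30428749) encodes IκBNS, a nuclear member of the IκB family that binds NF-κB subunits. Its normalized counts were 2409.9, 4352, 16354, 22567, 11957, 4933, 4941 and 8455 in the same order, with a half-life of 13.7 min (13.4 to 14.01, 10.5 to 19.8 with the dispersion). The level at 75 min was the lowest after 15 min of LPS, and the mRNA had increased again at 120 min.

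Nr4a1 (chr15:101253902-101274795), the orphan nuclear receptor NUR77, had normalized counts of 323, 518, 8288, 17106, 13176, 4254, 1449.9 and 371. It fell with a half-life of 14.9 min (14.5 to 15.4, 11.1 to 22.7 with the dispersion). In contrast to Zfp36 and Nfkbid, it was lower in each later library, with a log2 ratio of -1.97 from 90 to 120 min, and ended at 1.15 times its resting level.

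**Figure D3:**
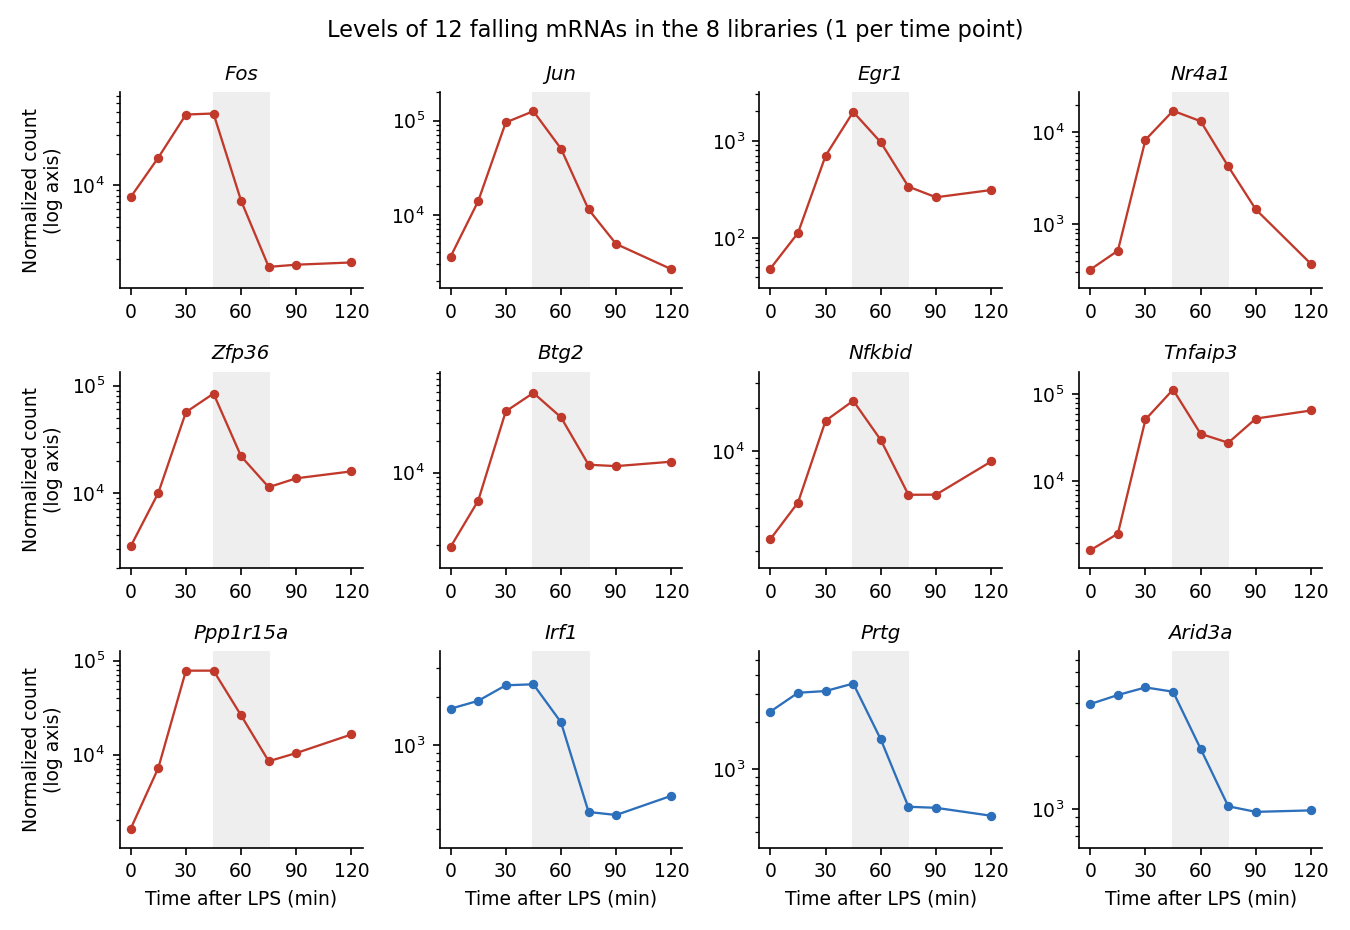
Normalized counts (y axes, log scale) of 12 falling mRNAs in the 8 libraries against minutes of LPS (x axes), with the interval from 45 to 75 min shaded; genes raised at 30 min are red and the others blue. The 9 red genes were highest at 45 min, Fos and Ppp1r15a by little over 30 min, and so were Irf1 and Prtg. At 75 min, Irf1, Prtg, Arid3a and, of the red genes, Fos were below their 0 min level.

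The 2 shortest half-lives belonged to transcription factors of the immediate early response. Fos (chr12:85473890-85477274), which forms AP-1 with JUN, had normalized counts of 7734, 18321, 46926, 47986, 7127, 1683, 1765 and 1854 in the 8 libraries and a half-life of 6.21 min (6.10 to 6.31). It was down to 14.9% of the 45 min level at 60 min and to 3.51% at 75 min, and from 60 min on all libraries lay below the 0 min level, at 120 min with 0.24 times that level. Jun (chr4:95049036-95052222) followed with 3584, 13951, 95941, 126309.5, 50508, 11399, 4892 and 2639.6 and a half-life of 8.65 min (8.56 to 8.73), and had returned below its resting level at 120 min.

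Of 13 AP-1 and ATF factors compared, of 14 listed, 4 fell and 1 rose, where 1.62% and 1.4% of all genes did so. Besides Fos and Jun, the falling factors were Fosb (half-life 20.98 min, 11.8 to 91.6 with the dispersion) and Junb (25.9 min, 14.5 to 124.6 with it). Fosl2, which encodes the FOS-related protein FRA2, rose by 1.28 on the log2 scale. Atf3, a repressor of cytokine genes, had a log2 ratio of -0.65 and Fosl1 of 0.57, neither past 2-fold. Members of one family therefore moved in opposite directions.

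Of the EGR factors with their NAB corepressors and SRF, 1 of 6 fell (all genes: 1.62%). Egr1, a zinc finger factor of the immediate early response, went from 1979.8 to 338 normalized counts with a half-life of 11.8 min (10.9 to 12.7), while its relatives Egr2 (-0.35) and Egr3 (0.19) had log2 ratios within the 2-fold limits. Likewise, of the nuclear receptors Nr4a1 and Nr4a2 only Nr4a1 fell, the log2 ratio of Nr4a2 being 0.04 (-0.16 to 0.24).

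Among 8 genes of the IER and KLF early response group, 4 fell and 1, the growth regulator Myc, rose by 1.75. Of all genes compared, 1.62% fell and 1.4% rose. Ier2 had normalized counts of 4153, 12524, 69318, 58972, 16123, 7539, 8703 and 10508 and a half-life of 10.1 min (9.97 to 10.2), and its level was already lower at 45 than at 30 min. Klf2, which encodes a factor that restrains macrophage activation, had a half-life of 12.3 min, Ier3, an inhibitor of NF-κB and of cell death, of 23.1 min and Klf10 of 24.3 min.

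The IκB proteins and A20 inhibit NF-κB as feedback. Of the 6 IκB genes, Nfkbid alone passed the 2-fold limit (all genes: 1.62% fell and 1.4% rose). Nfkbia, the IκBα that holds NF-κB in the cytoplasm, had normalized counts of 13858, 23271, 84848, 100494, 50927, 55323, 86703 and 105352 and a log2 ratio of -0.86 (-0.88 to -0.84), so that its decline stayed short of 2-fold. Nfkbiz had a log2 ratio of -0.59 (-0.61 to -0.57), so that all 3 IκB genes raised at 30 min were lower at 75 min by more than counting error. With the dispersion over the libraries, the interval of Nfkbid alone of these stayed below 0. Of 9 genes of A20 and its partners, 1 fell: Tnfaip3 (chr10:19000910-19015410), which encodes the ubiquitin-editing enzyme A20, with 1632, 2529, 51274, 112775, 35105, 27772, 52493 and 64961 and a half-life of 14.8 min (14.7 to 15.0). Most of its decline lay before 60 min, and its level was higher again at 90 and 120 min. The 5 subunits of NF-κB itself had log2 ratios of 0.33 to 1.08, of which Rel rose past 2-fold.

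Dual-specificity phosphatases, which switch off MAP kinases, divided in both directions, with 4 of 10 lower and 2 higher (all genes: 1.62% and 1.4%). Dusp1 (chr17:26505591-26508472), which acts on p38, had normalized counts of 496, 1215, 14206, 37986, 20152, 14071, 16397 and 13689 and a half-life of 20.9 min (20.5 to 21.4). Dusp2 (21.3 min), Dusp6 (22.1 min) and Dusp7 (22.6 min) had similar values. With the dispersion over the libraries the intervals were wide, from 13.8 to 43.1 min for Dusp1 and from 13.7 to 65.1 min for Dusp7. Whether these half-lives differ is thus not resolved. Dusp4 rose by 1.82 and Dusp16 by 1.97 on the log2 scale. Only Dusp1 and Dusp2 of the 4 that fell had been raised at 30 min, and Dusp6 and Dusp7 were below their resting level at 75 min.

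Regulators of mRNA decay were mostly level, as were all genes compared, of which 10600 of 10930 passed 2-fold in neither direction. Of 14 mRNA-binding regulators, Zfp36 and its relative Zfp36l2 fell, the latter from 11234 to 3789 normalized counts with a half-life of 19.1 min (18.4 to 19.9), and Zfp36l1 had a log2 ratio of -0.94 (-1.06 to -0.83). The ribonuclease gene Zc3h12c rose by 1.34, and Zc3h12a, the related Regnase-1, had a log2 ratio of 0.56. None of 37 genes for deadenylation, decapping and the exosome passed 2-fold in either direction, with a median log2 ratio of 0.07 and a range of -0.46 to 0.27. Btg2 (chr1:134074865-134079155), which encodes an antiproliferative protein that binds the CCR4-NOT deadenylase, was the only one of 4 BTG and TOB genes to fall, with 1919.7, 5348, 38814, 58423, 34052, 11881, 11519 and 12708 and a half-life of 13.1 min (12.9 to 13.2).

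Cytokine mRNAs mostly rose over the same 30 min. Of 17 cytokines and chemokines compared, 10 rose and 1 fell (all genes: 1.4% and 1.62%), with a median log2 ratio of 1.503. The exception was Tnf, which went from 270553 through 84756 at 60 min to 108231 at 75 min, a half-life of 22.7 min (22.5 to 22.9) although all of the decline lay before 60 min. Il1b, which encodes interleukin-1β, had normalized counts of 38.5, 55.2, 654, 1938, 9961, 22044, 45310.5 and 108098 and rose by 3.51 (3.44 to 3.58) on the log2 scale. Lif (3.25), Csf3 (2.98), Ccl4 (2.63) and Il1a (2.63) also rose. Of the 13 genes raised at 30 min that rose further, Il1b, Ccl4, Il1a, Irg1 (2.29) and Myc changed most.

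Genes other than cytokines also rose after 45 min. The highest log2 ratio among well-measured mRNAs was that of Agpat9 (3.67), an acyltransferase of glycerolipid synthesis, followed after Il1b and Lif by Niacr1 (3.21), the nicotinic acid receptor. Of 11 signalling feedback genes none fell and 5 rose (all genes: 1.62% and 1.4%). Among these 5 were Socs3 (1.14), which inhibits cytokine receptors, and Errfi1 (1.501), an inhibitor of the EGF receptor.

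Stress and survival genes again moved both ways, with 3 of 15 lower and 3 higher (all genes: 1.62% and 1.4%). Ppp1r15a (chr7:45522917-45526268), the GADD34 subunit that directs dephosphorylation of the initiation factor eIF2α, had normalized counts of 1631, 7219, 78029.8, 78091, 26096, 8503, 10383 and 16380.1 and a half-life of 9.38 min (9.27 to 9.49). Rhob (21.4 min), a small GTPase, and Ddit3 (26.1 min), the factor CHOP, fell more slowly. Gadd45b rose by 2.54. Arc, a gene of neuronal activity, fell from 8477 to 1726 with a half-life of 13.1 min.

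**Figure D4:**
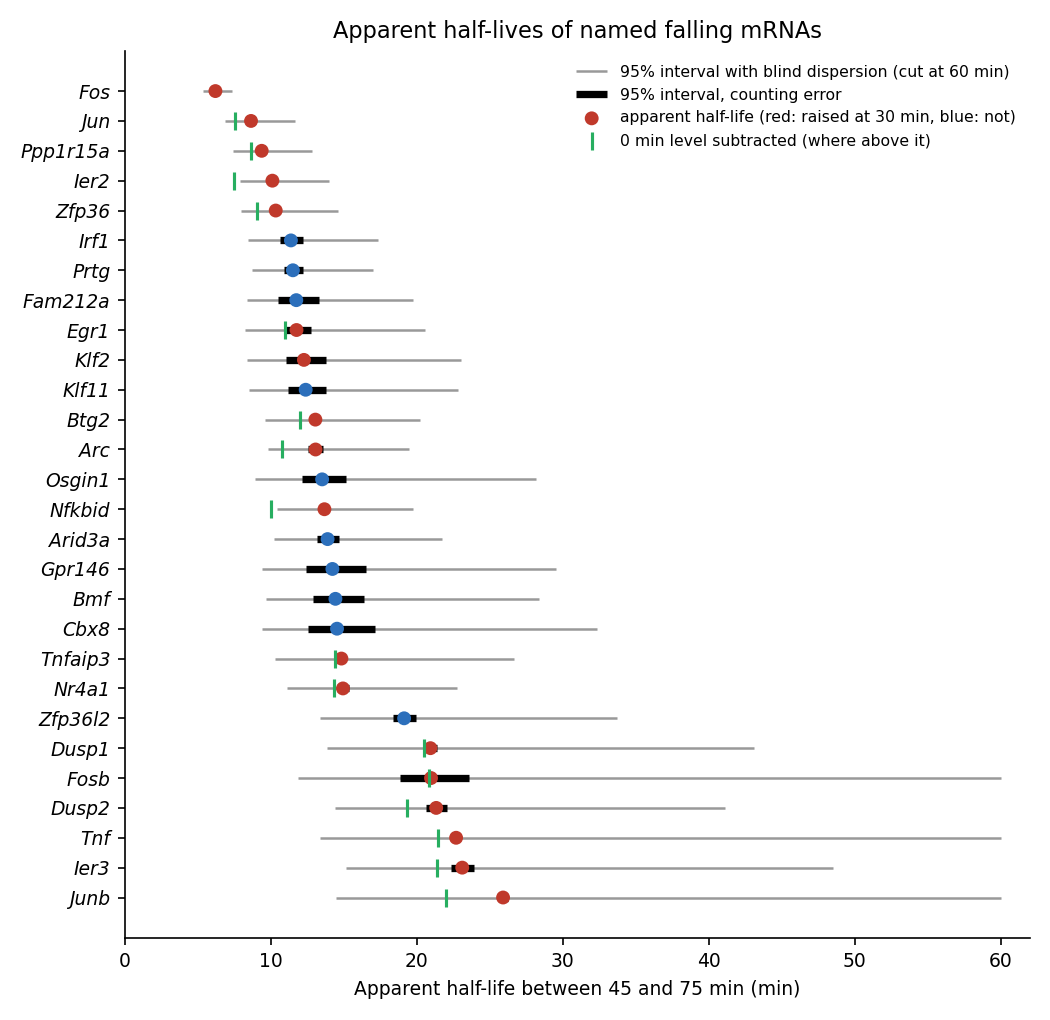
Apparent half-lives between 45 and 75 min (x axis, min) of 28 named falling mRNAs, ordered from the shortest to the longest; red points were raised at 30 min and blue points were not. Black bars are counting intervals, grey bars add the dispersion over the 8 libraries (cut at 60 min), and green ticks give the half-life of the part above the 0 min level; Fos has the shortest half-life, at 6.21 min, and its grey bar overlaps that of Jun.

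Mixed in with the immediate early genes were mRNAs that had not risen 2-fold by 30 min. Of the 20 well-measured mRNAs with the shortest half-lives, 11 had been raised at 30 min and 9 had not. All 9 were below their 0 min level at 75 min, which follows largely from their choice as genes less than 2-fold higher at 30 min that then fell. They were not all flat before: at 45 min Osgin1 stood at 2.14, Klf11 at 1.71 and Prtg at 1.51 times the 0 min level. Irf1 stood at 1.42 and Arid3a at 1.17, while Bmf (0.61), Gpr146 (0.54), Cbx8 (0.54) and Fam212a (0.46) were below it. The fastest of the 9 was Irf1 (chr11:53770014-53778374), an interferon regulatory factor, with normalized counts of 1684, 1886, 2356, 2389.8, 1388, 384, 368 and 485 and a half-life of 11.4 min (10.6 to 12.2). Prtg, which encodes the cell surface protein protogenin, had 2335, 3076, 3153, 3521, 1552, 579, 570.0 and 507 and a half-life of 11.5 min (10.9 to 12.2). Arid3a, a DNA-binding factor, had 3941, 4436, 4897, 4631, 2194, 1036, 964 and 982 and a half-life of 13.9 min (13.2 to 14.7). These 3 mRNAs were within 2-fold of the 0 min level until 45 min and stood at 0.228, 0.248 and 0.263 times that level at 75 min.

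The others of this kind were Fam212a (11.7 min), Klf11 (12.4 min), Osgin1 (13.5 min), Gpr146 (14.2 min), Bmf (14.4 min), which encodes a BH3-only protein of apoptosis, and Cbx8 (14.5 min), a Polycomb subunit. Fam212a, Gpr146, Bmf and Cbx8 were already lower at 45 than at 30 min. Of 6 Id and BMP feedback genes, Smad6 (17.3 min) and Id2 (24.5 min) fell and Id1 rose by 1.17. Over all genes compared the shares were 1.62% and 1.4%.

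The time courses of the falling genes raised at 30 min and of those that were not are given as a description, since the 30 over 0 min ratio and the fall from 45 to 75 min chose both groups and largely fix where they peak and how they stand to the 0 min level at 75 min. Of the 34 raised genes, 30 were highest at 45 min and 7 had dropped below the 0 min level at 75 min. Of the 143 others, 35 were highest at 45 min and 71 at 15 min, and 140 were below the 0 min level at 75 min. At 120 min, 17 of the 34 and none of the 143 were at least 2 times above the 0 min level, whereas 2 and 109 were at or under 50% of it. The median half-life was 18.2 min for the raised genes and 23.7 min for the others, and 14 and 15 genes had half-lives of at most 15 min. Of the levels at 45 min, a median of 47.1% was left at 60 min and 31.8% at 75 min among the raised genes, and 61.1% and 41.6% among the others.

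**Figure D5:**
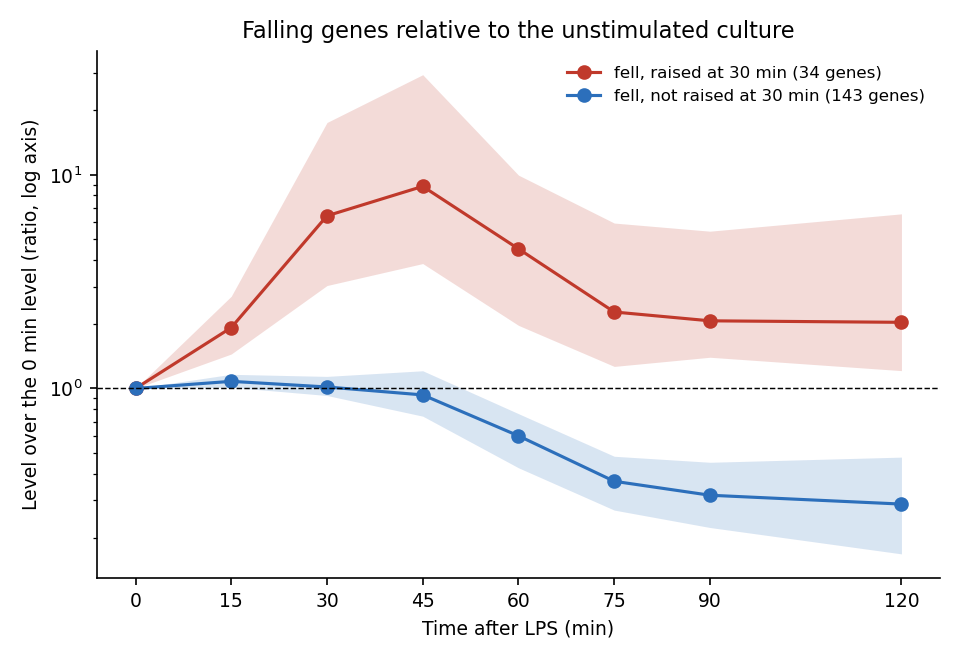
Median ratio to the 0 min level (y axis, log scale) of the 34 falling genes raised at 30 min (red) and the 143 that were not (blue) against minutes of LPS (x axis), with the quartiles shaded. The red line peaks at 8.83 at 45 min and stays near 2.04 to 2.28 from 75 min on, and the blue line runs near 1 until 45 min and drops to 0.29 at 120 min.

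The course within the 30 min was not the same for all mRNAs. Half-lives over 45 to 60 min and over 60 to 75 min share the 60 min library, so that an error in that library moves them in opposite directions, and they are given as a description. Zfp36 (7.71 and 15.7 min), Tnfaip3 (8.91 and 44.4 min) and Ier3 (13.7 and 73.1 min) lost more in the first step. Tnf and Dusp2 fell only in the first step and were higher at 75 than at 60 min. Nr4a1 (39.8 and 9.20 min), Junb (52.6 and 17.2 min), Rhob (44.8 and 14.1 min) and Arc (23.9 and 8.997 min) lost more in the second. Ppp1r15a (9.49 and 9.27 min) and Arid3a (13.9 and 13.9 min) had similar values in both.

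Where a falling mRNA heads for its resting level and not for 0, the half-life of the part above that level is shorter. After the 0 min level was subtracted, it was 9.03 min for Zfp36, 10.0 min for Nfkbid, 14.3 min for Nr4a1 and 7.55 min for Jun. Fos, Klf2 and the 9 fast mRNAs that had not risen were below it at 75 min and have no such value.

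The decline was next looked for in libraries that the 75 over 45 min ratio does not use, and in which the Rn45s share was low. From 30 to 60 min, 163 of the 177 falling genes were lower (92.1%, against 52.1% of all genes compared) and 60 were at least 2-fold lower (33.9%, against 1.16%), with a median log2 ratio of -0.78. Of the 177, 1 was at least 2-fold higher over this step (0.565%, against 1.68%). A lower level was found for 136 of the 143 genes not raised at 30 min and for 27 of the 34 raised ones, although the 30 min library had served to separate these groups. Fos (-2.72), Fam212a (-2.38), Cbx8 (-2.11) and Ier2 (-2.10) had the lowest log2 ratios among the named genes, while Nr4a1 (0.67), Fosb (0.79) and Dusp1 (0.50) were still higher at 60 than at 30 min.

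From 90 to 120 min, again in libraries outside the ratio, the median log2 ratio of the 177 genes was -0.05, and 93 of them were lower, against 50.7% of all genes compared. Over this step 12 were at least 2-fold lower (6.78%, against 0.375% of all genes), among them Nr4a1 (-1.97) and Fosb (-1.53), and 1 was at least 2-fold higher (0.565%, against 0.439%), which was Rhob (1.01).

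Gene structure is a property the comparison did not use, and it differed between falling genes that had been raised at 30 min and those that had not. Over transcripts matched to GENCODE, the median number of exons was 3 for the falling genes raised at 30 min, 5 for all falling genes and 9 for all genes compared. The median genomic span was 3384, 12066 and 21478.5 bases. The falling genes that had not been raised had a median of 6 exons, a span of 16585 bases and a transcript of 3530 bases, compared with a transcript of 3007 bases for all genes. Genes raised at 30 min that did not fall had a median of 5 exons and a span of 8913 bases. At most 2 exons were present in 12 of 29 raised falling genes (41.4%), among them Jun, Ier2 and Junb with 1 exon, compared with 6.24% of all genes. Rising genes had a median of 5 exons and a span of 13865 bases, so that few exons were also found among mRNAs that moved upward. The median GC content was 54.3% for falling, 48.97% for rising and 50.2% for all genes.

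AU-rich motifs were more frequent among the falling mRNAs than among all genes, and also among the rising ones. The pentamer ATTTA was present in 127 of 163 falling genes with an annotated 3′ UTR (77.9%), in 83.5% of rising genes and in 68.2% of all genes. The nonamer TTATTTATT, which contains it, was present in 19 of 163 (11.7%), 12.9% and 7.54%. With half-lives of at most 15 min, 6 of 29 genes held the nonamer (20.7%), namely Fos, Ppp1r15a, Zfp36, Tnfaip3, Rab3a and Themis2, the last pair of which was named after the values were seen. Jun, Ier2, Egr1, Klf2, Btg2, Nfkbid and Nr4a1 held none. The nonamer was present in 2 of 27 genes with half-lives of 15 to 20 min (7.41%) and in 10.3% of those with 20 to 30 min. It was also present in 10.96% of genes with 30 to 60 min, which had not fallen 2-fold. The share thus did not change steadily with half-life. The median 3′ UTR had 877 bases for half-lives of at most 15 min, 1189 for all falling, 1121 for rising and 1051 for all genes. The role of this length was not tested. Among genes raised at 30 min the nonamer was present in 20.7% of those that fell and in 18.2% of those that did not.

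Promoters were matched for 24 of the 34 falling genes raised at 30 min, and a gene could have more than 1. Of these 27 promoters, 4 held TGACGTCA (14.8%), those shown above. The element was found in 5 of 82 promoters of genes raised at 30 min that did not fall (6.10%), 2.42% of the promoters of the other falling genes, 3.26% of those of all genes compared and 1.79% of all 32851 promoters of the same length. The AP-1 motif TGANTCA was found in 2 of the 27 (7.41%), against 4.89% and 7.81%, and in 13.1% of promoters of rising genes. The serum response element (CArG box), searched in 1 form on both strands, was in none of the 27 and in 0.0639% of all promoters. A form this rare would hardly be met in 27 promoters, so its absence says nothing on these genes. A match of letters in this window is a description and not a bound site.

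Most transcripts of general function stayed within 2-fold, as did 10600 of the 10930 genes compared, so that the counts below are close to that share. None of 13 reference genes, of 76 ribosomal protein genes and of 56 histone genes passed that limit, with median log2 ratios of 0.06, 0.11 and 0.48. The 40 small nucleolar RNAs compared had a median of 0.45, with 4 that rose and none that fell. Of 3 nuclear-retained RNAs none passed 2-fold, Malat1 having a log2 ratio of -0.43. Among 270 numbered zinc finger genes 5 fell, Zfp36 included, and 6 rose, where 1.62% and 1.4% of all genes compared did so.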

How the data were processed

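RNA of RAW264.7 cells was depleted of ribosomal RNA and sequenced from 1 library per time point. The authors mapped reads of 58 bases to mouse RefSeq transcripts (mm10, which is GRCm38) with Bowtie, allowing 2 mismatches, and deposited raw read counts per gene, leaving out reads shared by genes of different symbols. CASAVA 1.8.2 and DESeq 1.10.1 are named in the submitters' processing notes. Whether counting used strand is not given in the sources used here, so that reads of a gene and of an antisense partner cannot be told apart. The rows of 2 spike-in transcripts were left out of size factors and of all comparisons.

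From these deposited counts, median-of-ratios size factors were computed over all 8 libraries (0.885 at 45 min, 0.710 at 75 min; Python 3.11.15, numpy 2.4.6, pandas 2.3.3). Ratios of genes with at least 50 counts in 1 of the libraries carry exact conditional binomial 95% intervals (scipy 1.17.1), which cover counting error only. A gene without reads at 75 min could still have up to 3, or 4.22 normalized counts. The wider interval adds the trended dispersion of edgeR 4.0.16 (R 4.3.3), fitted over the 8 libraries without groups. No test was run. On simulated counts for 23141 genes with 200 genes that fell 2-fold or more, 199 were called, as were 0 of 9066 unchanged genes. All of these genes had a mean of at least 500 normalized counts. The simulated dispersion was set below the median of 0.039 fitted over the 8 libraries. The simulation therefore checks the calculation and gives no error rate for these data.

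Transcripts of GENCODE vM21 were matched by RefSeq accession (10777 genes), and 3′ UTRs began after the stop codon (10372 genes). Named genes were Zfp36, Nfkbid, Nr4a1, the 20 lowest and 10 highest log2 ratios among mRNAs with at least 500 normalized counts in the 45 or 75 min library, the highest 5 of the genes raised at 30 min, and the members of fixed gene lists. The genes and lists were chosen with earlier results of these data known. Alternatives covered the scale, the minimum count, the fold limit, the dispersion, transcript length and GC content, a pseudocount, the 0 min level, other time points and the UTR annotation. The RefSeq symbols used in the table are older ones for Spi1 (Sfpi1) and Cnot11 (D1Bwg0212e). A gene and a sequence that the naming rule would include are not reported here.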

Additional observations from a re-analysis of the deposited data

Results flagged for a closer look

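The 2 spike-in transcripts, which the study added in fixed amount per amount of RNA, enter the report only as alternative scales, and both had signal in every library. Between 45 and 75 min their normalized counts moved in opposite directions. The transcript labelled BGIVT was 1.40 times as high at 75 min (interval 1.35 to 1.46, from 4652 and 5231 reads), and the transcript labelled FLIVT was 0.904 times as high (0.886 to 0.923, from 21599 and 15664 reads). Taken as scales, they give the different counts of falling genes stated in the report.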

How the results depend on the processing

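No paired analysis was possible because each time point has 1 library and no replicate number joins them. The 177 falling and 153 rising genes, the 34 falling genes raised at 30 min and the median half-life of 22.6 min stayed within 1.5 times of these values under total counts without Rn45s, TMM factors, size factors from the 45 and 75 min libraries, reference genes, at least 200 counts, the wider interval, corrections for transcript length and GC content, and a pseudocount of 1.

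Division by total counts gave 266 falling genes. A minimum of 10 counts gave 342 falling and 250 rising genes, and 1 count in both libraries gave 576 and 565. A 1.5-fold limit gave 569 and 373, with a median half-life of 35.9 min. Under the 2-fold limit no falling gene can have a half-life above 30 min on any scale. The stable median above is therefore partly set by that limit. Of 46 genes at least 4-fold higher at 30 min, 21 fell. With the 0 min level subtracted, the median half-life of the 30 genes above it was 13.7 min. Alternatives chosen after the data were seen were the spike-in scales and other time points. BGIVT as the scale gave 712 falling and 67 rising genes, with 52 of those raised at 30 min falling, and the 90 over 45 min ratio gave 279 falling genes with a median half-life of 34.7 min, 143 of them among the 177. A line through 45, 60 and 75 min gives the same half-life, since the middle point carries no weight. The longest annotated 3′ UTRs gave 78.5% with ATTTA, against 77.9%.

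The 36 half-lives of named genes took 415 values under the alternatives, of which 281 lay within the counting interval, 134 outside it and 0 changed direction. The 281 include the values of the line described above, which always equal the reported half-life. Every named falling gene was at least 2-fold lower, and the largest upward shift of any scale was 0.145 in log2 units, with FLIVT. No change of direction was therefore possible by a change of scale. For Zfp36 the values ran from 8.85 min with BGIVT to 10.9 min with FLIVT, for Nr4a1 from 12.02 to 16.1 min and for Ddit3, the widest, from 18.3 to 29.8 min. Counting error was small for these genes, and the lack of replicates limits them more than depth.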
